A study of Rattus norvegicus with 6 samples.

Results

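The 6 arrays of this series were divided into 2 sets of 3 by a single quality measure, the ratio of the signal at the 3′ end to the signal at the 5′ end of the transcript of Gapdh, a glycolytic enzyme whose probe sets serve as controls on the array. Arrays with a ratio above 7 formed the high-ratio set, which held control 1, Math2 1 and Math2 3. The low-ratio set held the other three arrays, control 2, control 3 and Math2 2. The ratio was 13.8, 8.48 and 8.14 on the high-ratio arrays in that order and 3.74, 5.04 and 6.0 on the low-ratio arrays. Math2 3 at 8.14 was the array just inside the limit and Math2 2 at 6.0 the one just outside it. These Gapdh values chose the sets and were given no test.

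The cells were primary cultures of rat cerebral cortex, which hold neurons, glia and other cells. They were transfected either with an expression vector for Math2, also called Neurod6, a basic helix-loop-helix transcription factor of cortical neurons, or with a control vector, at 13.3 µg for a 10-cm dish. Both groups, controls included, also received 2.7 µg of a vector for LNGFR, the low-affinity nerve growth factor receptor, cut short so that it serves as a surface tag, used to select the transfected cells after 24 h. The arrays therefore report on the cells kept by that selection, whose purity was not tested here. From each sample 50 ng of total RNA was labelled in 2 cycles and hybridized to an Affymetrix Rat Genome 230 2.0 array, with 3 control and 3 Math2 arrays in all. The labels do not give the age of the rats, the promoters of the vectors or whether the samples came from separate cultures, so the p-values speak for the spread among these 6 arrays alone, which may be technical.

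Labelling of this kind starts from the poly-A tail, and in the second cycle from random primers, so the labelled product grows shorter from the 5′ end whenever the RNA is broken or the copying stops early. Probe sets far from the tail then lose more signal than those near it. Affymetrix arrays therefore carry separate 3′, middle and 5′ probe sets for Gapdh and beta-actin, and probe sets for bacterial poly-A transcripts (dap, lys, phe and thr) that are usually added to the RNA before labelling and owe nothing to the cells. The comparison asks which of the other transcripts, and which cell types, followed the Gapdh split. In what follows, values on single arrays are given first for the high-ratio arrays in the order control 1, Math2 1 and Math2 3, and then for the low-ratio arrays in the order control 2, control 3 and Math2 2. A signal is the deposited linear intensity, and a log2 difference is the high-ratio mean minus the low-ratio mean of log2(signal + 7.42).

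The 2 ends of the Gapdh transcript contributed unequally to the ratio. The 3′ signal was 7899, 12652 and 11034 on the high-ratio arrays and 12598, 14088 and 16874 on the low-ratio arrays, and the sets overlapped. The 5′ signal was 572, 1492 and 1356 against 3371, 2795 and 2814, without overlap. The middle probe set also separated the sets, at 1533, 2850 and 3135 against 5844, 6080 and 6823. The ratio averaged 10.1 ± 3.18 on the high-ratio and 4.92 ± 1.13 on the low-ratio arrays (SD, n = 3 each).

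Beta-actin, the other cellular control, separated the sets by its level, while its ratio overlapped. The ratio averaged 18.5 on the high-ratio and 13.9 on the low-ratio arrays, which leans the way of the Gapdh ratio. Its 3′/5′ ratio was 22.7, 14.3 and 18.4 on the high-ratio arrays and 11.0, 13.5 and 17.1 on the low-ratio arrays, so the sets overlapped (exact two-sided permutation test, p = 0.2, adjusted p = 0.34 over the 17 array measures tested). Its 3′ signal was 3732, 5546 and 5163 on the high-ratio arrays against 12010, 10549 and 16680, a log2 difference of -1.44. The middle and 5′ beta-actin signals differed by -1.54 and -1.85 on the log2 scale, again without overlap. For each of the 3 beta-actin signals the exact two-sided permutation p was 0.1, the smallest that 3 against 3 arrays allow, and 0.283 after adjustment. Every high-ratio array lay below every low-ratio array at all 3 beta-actin positions.

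The spike-ins, which do not come from the cells, split only in part. The geometric mean of the 4 poly-A 3′/5′ ratios was 23.6, 14.1 and 19.7 on the high-ratio arrays and 11.2, 16.2 and 10.5 on the low-ratio arrays, with overlap (exact two-sided permutation test, p = 0.2, adjusted p = 0.34). Of the 4 spike-ins, thr alone did not overlap, at 33.9, 18.3 and 17.1 against 15.6, 11.6 and 10.9 (exact permutation p = 0.1, adjusted p = 0.283). The dap ratio was high on both arrays numbered 3 and on control 1, at 30.2, 10.4 and 31.7 against 10.4, 34.5 and 8.96. Of the 17 array measures tested, 6 did not overlap between the sets. Beside the 3 beta-actin signals and thr these were the dim 3′ signal of hexokinase, between 28.2 and 55.1 on all arrays, and the array median, which was 102, 106 and 108 on the high-ratio arrays and 111, 120 and 120 on the low-ratio arrays. Hybridization spike-ins and 5S ribosomal RNA overlapped between the sets, with an exact permutation p of 0.5 each.

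**Figure D1:**
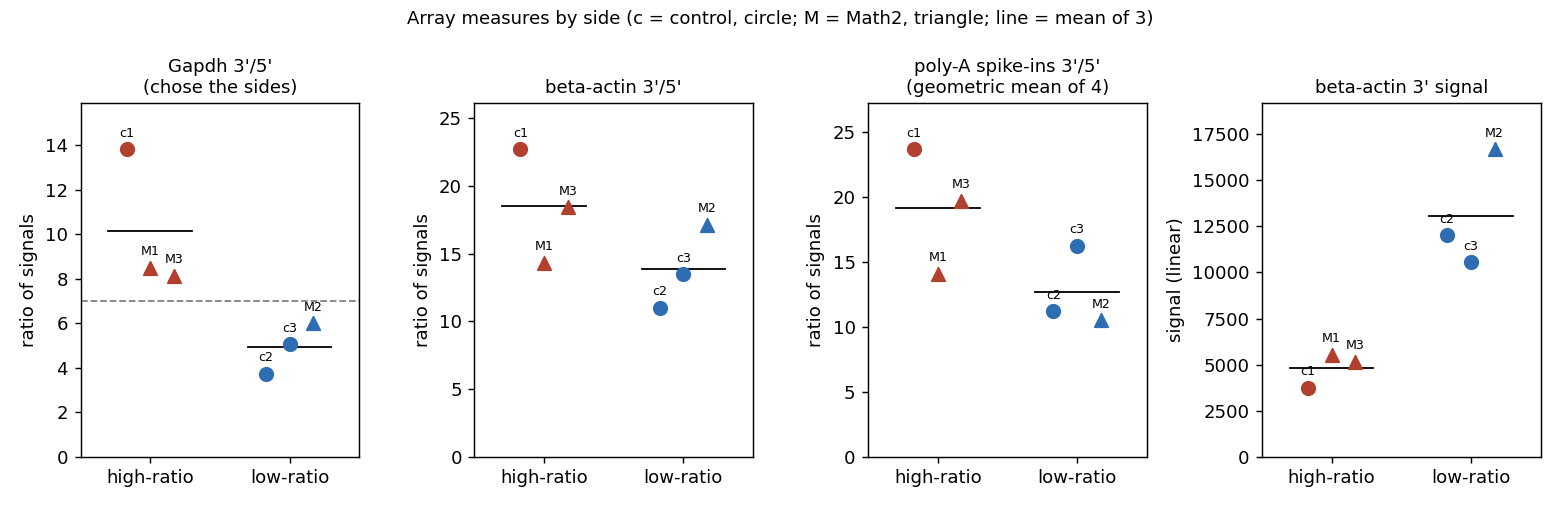
Signal ratios of Gapdh, beta-actin and the poly-A spike-ins and the beta-actin 3′ signal (linear axes) on the 6 arrays, grouped by side; circles are control arrays, triangles Math2 arrays, bars the mean of 3, and the dashed line the limit of 7. The ratios of beta-actin and the spike-ins overlap between the sides, while the beta-actin 3′ signal lies between 3732 and 5546 on the high-ratio arrays and between 10549 and 16680 on the low-ratio arrays.

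The split lay along the main direction of variation among the arrays. The first principal component of the log2 signals held 35.7% of the variance and scored -31.7, -28.2 and -37.8 on the high-ratio arrays against 38.3, 3.07 and 56.3 on the low-ratio arrays. The second component, with 29.3%, set control 3 and Math2 3, at 42.2 and 33.6, apart from Math2 1 at -58.5. Array-to-array correlations over the tested probe sets were 0.930 to 0.948 within the high-ratio set, 0.934 to 0.962 within the low-ratio set and 0.910 to 0.959 between the sets. The sets were also tied to the replicate numbers in the titles. Both arrays numbered 1 were high-ratio and both numbered 2 low-ratio, and of number 3 the Math2 array was high-ratio and the control array low-ratio. Side and replicate number therefore cannot be told apart for numbers 1 and 2, and within number 3 side and vector cannot be told apart.

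Across 18625 probe sets tested with limma, 0 passed a Benjamini-Hochberg adjusted p of 0.05 between the sides (0.0%), and the smallest adjusted p was 0.0909. At an unadjusted limma p of 0.05, 1048 probe sets (5.63%) were higher and 2092 (11.2%) lower on the high-ratio arrays, 3140 (16.9%) in all. Without overlap between the 3 high-ratio and the 3 low-ratio arrays were 1605 higher (8.62%) and 2753 lower (14.8%), and 113 (0.607%) and 575 (3.09%) of these also differed by at least 2-fold. The excess of lower over higher probe sets depended on the scaling. Of those without overlap, 36.8% were higher as deposited, 49.1% after quantile normalization and 60.2% after median centring, and the median log2 difference of all probe sets was -0.056, 0.024 and 0.078. Among those that differed by at least 2-fold, the lower ones outnumbered the higher under all 3 scalings, by 575 to 113, 380 to 208 and 372 to 219.

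Single arrays carried part of these counts. Without Math2 3, the adjusted limma test called 20 probe sets, 18 lower and 2 higher on the high-ratio arrays, and without control 3 it called 1. Without control 2 or Math2 2 the unadjusted count went from 3140 to 1950 or 2005. With the replicate number as a block, which takes the side difference from number 3 alone, 0 were called and 748 had an unadjusted limma p under 0.05. With the vector as a covariate 1 was called, a probe set without a gene symbol (1370751_at) at a log2 difference of -2.51 and an adjusted limma p of 0.0126.

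The side difference was also read within each vector, with no test since 1 array stood on one side of each. Of 1206 probe sets below both other controls on control 1, and at least 2-fold below their mean, 883 (73.2%) were also lower on Math2 1 and Math2 3 than on Math2 2, against 40.5% of all tested probe sets. In the other direction, 319 were higher on control 1 by the same rule and 158 of these (49.5%) were higher in the Math2 arrays, against 30.6% of all. These values share replicate numbers 1 and 2 between the vectors. Of 1218 probe sets lower on both arrays numbered 1 than on both numbered 2, and by at least 2-fold on average, 998 (81.9%) were lower on Math2 3 than on control 3, against 54.5% of all. The interaction of side with vector, tested with limma, called 0 probe sets (0.0%), with 504 (2.71%) at an unadjusted p under 0.05 and a smallest adjusted p of 1.00.

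**Figure D2:**
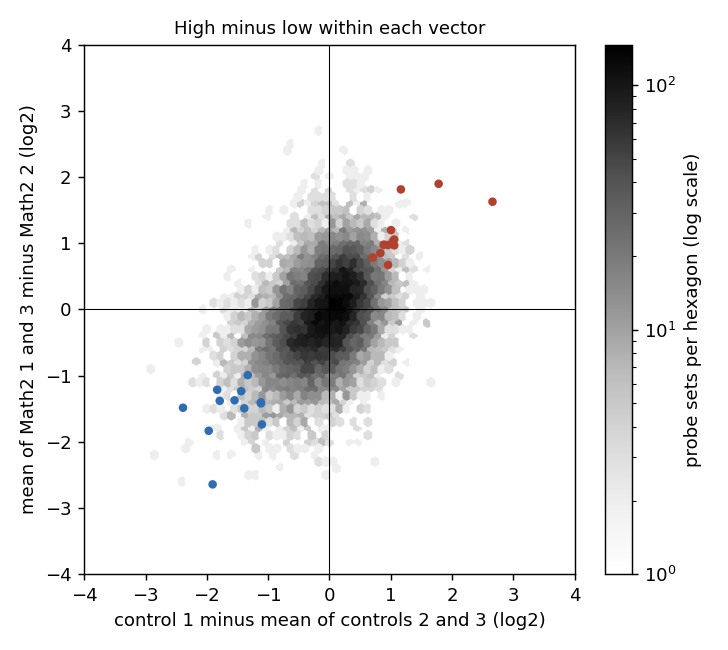
Log2 difference of each tested probe set between high-ratio and low-ratio arrays within the control arrays (x axis) and within the Math2 arrays (y axis); shading is the number of probe sets per hexagon on a log scale, and red and blue points are the 12 higher and 12 lower probe sets with the smallest limma p. The 24 points lie in the quadrants where both vectors have the same sign. They had to, since each of these probe sets separated the sides without overlap. Across the 18625 probe sets Pearson's r was 0.396.

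Among the transcripts lower on the high-ratio arrays, those with the smallest p included factors of translation, lysosomal proteins and an actin-binding protein. The 12 lower probe sets with the smallest limma p lay between log2 differences of -1.18 and -2.16, with adjusted p from 0.0909 to 0.0962, so none passed. Eef2, the ribosomal translocation factor of elongation, measured 2065, 2148 and 2676 on the high-ratio arrays and 5992, 6108 and 6220 on the low-ratio arrays. Its log2 difference was -1.42 ± 0.173 (SE, n = 3 each), and its adjusted limma p of 0.0909 became 0.049 after quantile normalization. Eif4g1, the scaffold of the cap-binding complex in translation initiation, measured 368, 384 and 401 against 1253, 1327 and 1034. Within each set the Eif4g1 signals lay close together, and the log2 difference was -1.62 ± 0.206 (SE).

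Ctsd, Psap and Flna had the same arrangement. Ctsd, the lysosomal protease cathepsin D, measured 352, 520 and 647 against 2343, 1500 and 1637, a log2 difference of -1.85 ± 0.272 (SE). Psap, the precursor of the saposins that help break down sphingolipids, measured 292, 235 and 216 against 922, 653 and 647 (log2 difference -1.55). Flna, the actin cross-linker filamin A, measured 1618, 1670 and 1810 against 3828, 4357 and 3465 (-1.18). For these 3 genes every high-ratio array was below every low-ratio array, with control 1 lowest for Ctsd and Math2 3 lowest for Psap. Hsp90b1, an endoplasmic reticulum chaperone, measured 2577, 1767 and 2673 against 5751, 5446 and 5759 (-1.29). The other lower probe sets belonged to Gnai2, an inhibitory G protein subunit (-1.72), Ccnd1, cyclin D1 (-1.37), Adgrg1, an adhesion G protein-coupled receptor (-1.31), Aamp (-1.33), Dhx36, a helicase that unwinds G-quadruplexes (-1.43), and Phip (-2.16).

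Among the transcripts higher on the high-ratio arrays, those with the smallest p included transcription factors and zinc finger, chromatin and RNA-binding proteins. Sox4, a transcription factor of immature neurons and progenitors, had 2 probe sets among the 12. The first (1393571_at) measured 1114, 1112 and 1567 on the high-ratio arrays and 238, 425 and 349 on the low-ratio arrays, a log2 difference of 1.90 ± 0.268 (SE) and an adjusted limma p of 0.0909. The second (1384000_at) differed by 1.24. Of the 5 tested Sox4 probe sets, the others overlapped between the sides. The brightest (1383137_at) differed by 0.51, 1373860_at by -0.75 and 1383989_at by -1.04. Zfp263, a zinc finger protein, measured 255, 196 and 299 against 35.6, 32.5 and 73.4 (2.29 ± 0.37 SE, limma, adjusted p = 0.0962). Its low-ratio signals lay below the array medians, where the deposited table does not say whether a probe set was detected.

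Bright transcripts in the same group differed by less. Fmr1, which encodes the RNA-binding protein FMRP, measured 3164, 3022 and 2896 against 1761, 1662 and 1498 (log2 difference 0.88). Scg3, a secretogranin of dense-core granules, measured 6628, 8134 and 6142 against 2628, 3970 and 3461 (1.06). Phf6, a chromatin protein with PHD-like zinc fingers, measured 2569, 2332 and 2601 against 1117, 1355 and 1256 (1.01). Each of these probe sets was higher on every high-ratio array than on any low-ratio array. A dimmer Phf6 probe set (1394968_at) overlapped, with a log2 difference of 0.002. The remaining leading higher probe sets were those of Zc2hc1a (1.65), Zfp536 (1.07), Nktr (0.88), Zfp386 (0.82), Ccnyl1 (0.82) and Phf14 (0.74). All 24 probe sets kept their sign in each alternative in which they were tested. Each separated the sides without overlap. That alone fixed its sign within number 3 and with single arrays left out, so those alternatives add no support. Blocking by number left each at an adjusted limma p of 0.999.

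**Figure D3:**
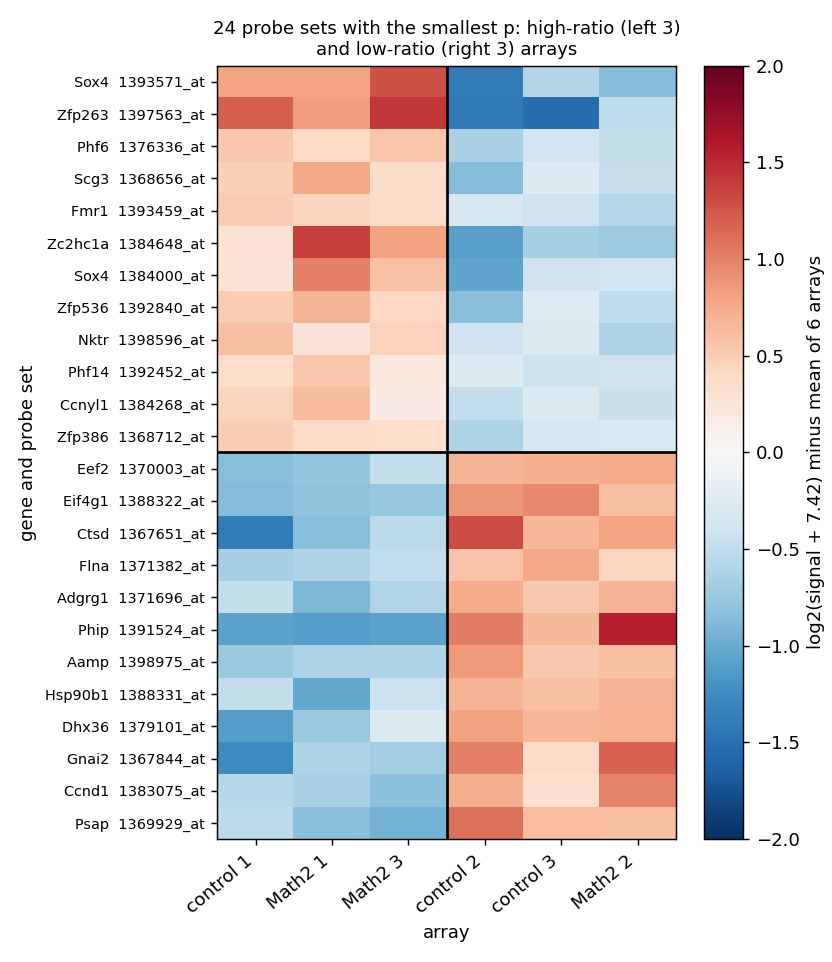
Log2(signal + 7.42) minus the mean of 6 arrays for the 12 higher and 12 lower leading probe sets (smallest limma p among those with 1 gene symbol), with the 3 high-ratio arrays on the left and the 3 low-ratio arrays on the right. The sets do not overlap in any of the 24 probe sets, which were chosen for a small p, so the block pattern describes the choice.

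Gene lists were compared by the brightest tested probe set of each gene, beside a background over all tested probe sets of 45.3% with a positive difference, a median of -0.056, and 14.8% lower and 8.62% higher without overlap. That background also holds dim probe sets. In its brightest quintile of mean signal the median was 0.11, with 9.40% lower and 17.7% higher without overlap. No list had a member that passed the adjusted limma threshold. The proteasome, the complex that degrades ubiquitin-tagged proteins, lay on the lower side. Of 36 proteasome subunit genes, 28 were lower and 8 higher, with a median log2 difference of -0.28, and 10 (27.8%) were lower without overlap against 14.8% of all. Psmd3, a subunit of the regulatory particle, measured 615, 615 and 489 against 1311, 1114 and 1459 (-1.16). Psmc3, an ATPase of the same particle, measured 1605, 2400 and 1864 against 3571, 2931 and 3268 (-0.75), whereas Psmc6 differed by 0.56 in the other direction.

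In a joint list of glycolysis and hypoxia genes, which leaves out Gapdh, 11 of 19 genes (57.9%) were lower, a share near the background, but 7 (36.8%) were lower and 0 higher without overlap. Its median of -0.17 was -0.04 after median centring and -0.038 with the ratio as a continuous measure. Eno1, the enolase of most tissues, measured 3185, 3911 and 5698 against 7122, 8376 and 10715 (-1.06). Gpi, Tpi1 and Aldoa, further enzymes of glycolysis, differed by -0.86, -0.79 and -0.73. Of 16 genes of cholesterol synthesis 11 were lower (median -0.20, and -0.065 after median centring), 3 (18.8%) without overlap. Mvk, mevalonate kinase, measured 194, 159 and 277 against 593, 446 and 743 (-1.47). The medians of the proteasome list, the glycolysis and hypoxia list and the cholesterol list kept their sign in the 18 settings tried. Leaving out the filter or limma's intensity trend, among these settings, left the medians unchanged.

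A lysosome list and an actin cytoskeleton list were added after the values had been seen. Of 24 lysosomal genes 22 were lower (median -0.33), 9 (37.5%) without overlap, while Lamp2, a lysosomal membrane protein, was higher, at 6371, 7630 and 5952 against 5464, 5259 and 4854. Of 27 actin cytoskeleton genes 16 were lower (median -0.16, and -0.031 after median centring), 10 (37%) without overlap. Both shares stand beside 14.8% of all probe sets, for lists chosen on these values. Among them Pfn1, the actin monomer-binding profilin, measured 503, 1068 and 647 against 2350, 1394 and 1868 (-1.37). Actg1, cytoplasmic gamma-actin, measured 14837, 17067 and 22241 against 14734, 17648 and 21246 and so overlapped, unlike the beta-actin control probe sets.

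Genes of the respiratory chain, mitochondrial ribosome and cytosolic ribosome lay near the background. Of 73 respiratory chain and ATP synthase genes 42 were lower (median -0.047), and after median centring the list's median was 0.087. Ndufv1, a core subunit of complex I, measured 1211, 1137 and 1546 against 2419, 2393 and 2285 (-0.87), and Cox5a, a subunit of cytochrome c oxidase, was higher by 1.07. Of 46 cytosolic ribosomal protein genes 27 were higher and 19 lower (median 0.068, but -0.058 after quantile normalization), and 2 had an unadjusted limma p under 0.05. Per array, their median deviation was 0.51 and 0.35 on Math2 1 and Math2 2 and between -0.27 and -0.08 on the other four arrays, an order that is not that of the sides. Of 60 translation factors 34 were lower, with a list median of -0.047 that became 0.086 after median centring. Without overlap 17 (28.3%) were lower, Eef2 and Eif4g1 among them, and 2 (3.33%) higher, against 14.8% and 8.62% of all.

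Zinc finger genes lay somewhat on the higher side, and splicing genes went both ways. Of 179 zinc finger genes 102 were higher and 77 lower, with a median of 0.11, and 32 (17.9%) were higher and 17 (9.50%) lower without overlap, against 8.62% and 14.8% of all. Their summed signal ranged from 163378 to 170894 on the high-ratio arrays and from 140761 to 147814 on the low-ratio arrays. The direction of the median rested on taking each gene's brightest probe set: with the mean over all of a gene's tested probe sets it was -0.036. Zfp593 went the other way, at 238, 266 and 594 against 1051, 1033 and 809 (-1.49). Of 27 hnRNP and SR splicing genes 17 were higher (median 0.14), but 6 were higher and 5 lower without overlap, and 4 each way had an unadjusted limma p under 0.05. The median was 0.022 without control 2 and -0.0074 with the block and the vector. Srsf11, an SR splicing factor, measured 7328, 9098 and 8627 against 5539, 5605 and 5270 (0.60), and Hnrnpm, an hnRNP protein, was lower by 0.60, at 3227, 2766 and 2354 against 4670, 3268 and 4783.

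**Figure D4:**
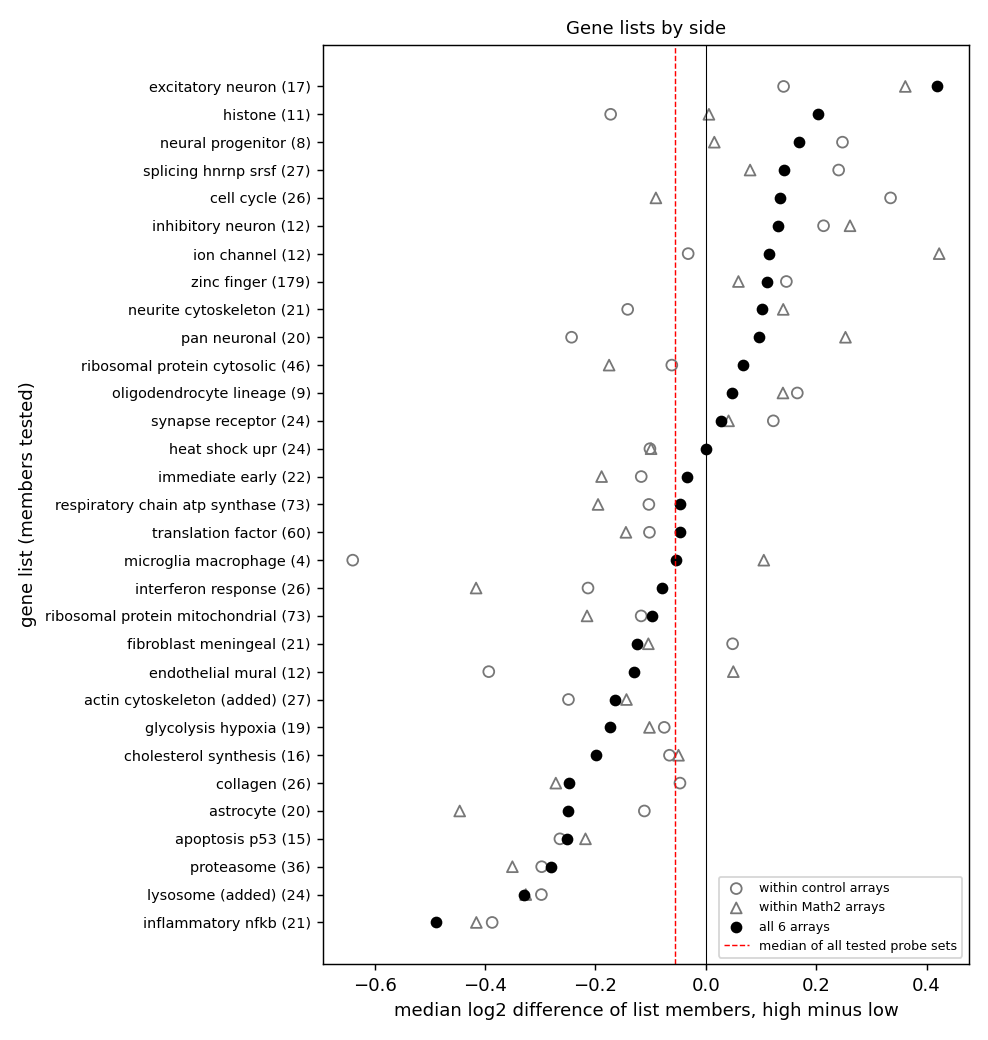
Median log2 difference, high-ratio minus low-ratio, of each gene list over all 6 arrays (filled points), within the control arrays (open circles) and within the Math2 arrays (open triangles), with the number of tested genes in brackets and the median of all tested probe sets, -0.056, as a dashed line. The lysosome and proteasome lists have all 3 points between -0.35 and -0.28, while the pan-neuronal list has points on both sides of 0, at -0.24 within the control and 0.25 within the Math2 arrays.

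Marker genes of neurons, astrocytes and fibroblast-like cells gave signal on the arrays of both sides. Vim, an intermediate filament of glia and mesenchymal cells, measured 15680, 27462 and 16983 against 16546, 15710 and 25389. Col3a1, a fibroblast collagen, measured 1310, 1258 and 1292 against 817, 1614 and 817. Microglia were barely represented: 4 of the 20 microglial and macrophage genes on the array passed the filter, with a summed signal of 227 to 380 on the high-ratio and 316 to 403 on the low-ratio arrays, and both Aif1 probe sets lay below 65 on every array. In bulk RNA, fewer cells of a type and less RNA per cell cannot be told apart.

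Pan-neuronal markers were highest on the arrays numbered 3, of which 1 lay on each side. Of 20 such genes 12 were higher and 8 lower (median 0.096), 0 with an unadjusted limma p under 0.05 and 0 without overlap. The median deviation of the list was -0.14, -0.46 and 0.86 on the high-ratio arrays and -0.45, 0.70 and -0.18 on the low-ratio arrays, so both arrays numbered 3 stood above the other four. Snap25, a synaptic vesicle fusion protein, measured 520, 537 and 1724 against 256, 987 and 273. Dcx, a microtubule protein of young neurons, measured 4048, 2987 and 8194 against 1447, 4984 and 1638 (log2 difference 1.02, limma, adjusted p = 0.314). Tubb3, neuronal beta-tubulin, measured 505, 600 and 1317 against 685, 1587 and 782. The summed signal of the list ranged from 31637 to 57419 on the high-ratio and from 27259 to 47970 on the low-ratio arrays. Without control 2, without Math2 3 or with the ratio as a continuous measure the list's median changed sign.

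Excitatory neuron genes were higher on the high-ratio side as a list. Of 17 genes 14 were higher and 3 lower, with a median of 0.42, between 0.24 and 0.55 over the 18 settings. The summed signal ranged from 18171 to 23112 on the high-ratio and from 13301 to 17663 on the low-ratio arrays. The median deviation of the list overlapped, at -0.011, 0.039 and 0.24 against -0.41, 0.077 and -0.12, with control 3 above 2 high-ratio arrays. No member was higher without overlap, and the only one that separated the sides went the other way: Cux1, an upper-layer transcription factor, measured 908, 761 and 746 against 967, 1271 and 927 (log2 difference -0.38). The only member with an unadjusted limma p under 0.05 was Tle4, a corepressor of deep-layer neurons, at 2352, 1793 and 2900 against 1521, 1965 and 1364 (log2 difference 0.53, limma, adjusted p = 0.286). Neurod1, a neuronal basic helix-loop-helix factor, measured 578, 1077 and 2002 against 330, 1353 and 334, where control 3 stood above 2 high-ratio arrays. Of 12 inhibitory neuron genes 8 were higher (median 0.13, and -0.19 with the block). Gad1, which makes GABA, measured 1554, 1036 and 2397 against 566, 1897 and 514.

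Astrocyte genes were lower on the high-ratio side as a list, by an amount that differed between arrays and settings. The list's median lay between -0.51 and -0.12 over the 18 settings, at -0.12 after median centring and -0.13 without Math2 3. It was -0.11 within the control and -0.45 within the Math2 arrays. The median deviation was -0.037, 0.022 and -0.36 against 0.28, 0.031 and 0.32, so Math2 1 and control 3 lay close together. Of 20 genes 14 were lower and 6 higher, with a median of -0.25, and 7 (35%) were lower without overlap against 14.8% of all. Gfap, the intermediate filament of astrocytes, measured 2063, 2898 and 1971 against 4344, 3202 and 5802, a log2 difference of -0.92 ± 0.248 (SE) and an adjusted limma p of 0.161. Clu, the secreted chaperone clusterin, measured 217, 207 and 388 against 783, 576 and 851 (-1.46). Bcan, the extracellular matrix protein brevican, measured 430, 400 and 513 against 801, 991 and 1272 (-1.16). Aqp4, the astrocyte water channel, did not share this arrangement, at 888, 831 and 354 against 771, 596 and 492 (0.07). The summed signal of the list overlapped between the sides, from 83267 to 116984 on the high-ratio and from 90650 to 117058 on the low-ratio arrays. The part of astrocyte content in the side difference was not tested.

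Other cell classes gave smaller or less even differences. Of 21 fibroblast genes 15 were lower (median -0.12, without a clear direction after median centring), and the list held members that separated the sides both ways. Fbln2, a matrix fibulin, measured 376, 333 and 333 against 881, 579 and 1105 (-1.23), whereas Col5a2, a fibrillar collagen, measured 9210, 9677 and 8893 against 5524, 8764 and 5737 (0.50). Neural progenitor genes also held both kinds: Nes, the filament protein nestin, measured 342, 410 and 346 against 735, 591 and 789 (-0.93), and Pax6, a progenitor transcription factor, measured 2933, 2603 and 2007 against 1967, 1518 and 1864 (0.49). Of 9 oligodendrocyte lineage genes 6 were higher (median 0.048), and of 12 endothelial and mural genes 9 were lower (median -0.13, and above 0 after quantile normalization and median centring). None of these lists had a member that passed the adjusted test.

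Inflammatory and interferon genes varied among the arrays of a side. Of 21 genes of inflammation and NF-kB signalling 16 were lower on the high-ratio side, with a median of -0.49, which was -0.043 without control 2. Relb, an NF-kB subunit, measured 209, 198 and 204 against 501, 276 and 603 (-1.07). Nfkbia, the inhibitor induced by NF-kB, measured 424, 568 and 379 against 1258, 522 and 1106, with control 3 inside the high-ratio range. Of 26 interferon response genes 15 were lower and 11 higher (median -0.08, and 0.054 after median centring). Their median deviation was 0.46 and 0.42 on the arrays numbered 2 and 0.50 on Math2 1, against -0.68 to -0.30 on the other three arrays. One probe set of Mx2, an interferon-induced GTPase, singled out after its values were seen, measured 2662 on control 2 and 2753 on Math2 2 and between 29.6 and 49.9 on the other four arrays. It is the probe set called when control 3 was left out.

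The remaining lists gave medians between -0.25 and 0.20. Collagens (26 genes, 18 lower) and a list of apoptosis and p53 genes (15 genes, 10 lower) each had a median of -0.25. The collagen median was -0.094 after quantile normalization. The median of the apoptosis and p53 list was -0.0078 with the replicate block and 0.26 with the block and the vector, and 2 of its genes each way had an unadjusted limma p under 0.05. Of 22 immediate early genes 13 were lower (median -0.034, and 0.10 after median centring), with Junb, an AP-1 subunit, at 76.1, 192 and 341 against 510, 492 and 556 (-1.55). Of 24 heat shock and unfolded protein genes 12 were higher and 12 lower, but without overlap 6 (25%) were lower and 1 (4.17%) higher. Those shares stand beside 14.8% and 8.62% of all. Of 26 cell cycle genes 16 were higher (median 0.13), but the median was -0.15 with the replicate block and -0.35 with the block and the vector, and without overlap 3 were higher and 4 lower. Ccna2, cyclin A2, measured 3849, 6169 and 3409 against 2186, 2143 and 2594 (0.91). Mcm3, a subunit of the replicative helicase, measured 659, 994 and 505 against 1185, 1009 and 1279 (-0.73). Histone, ion channel, neurite and synapse lists had medians of 0.20, 0.12, 0.10 and 0.03, and of the 18 olfactory receptor genes on the array 0 passed the filter. Of 73 mitochondrial ribosomal genes 47 were lower (median -0.098, and 0.036 after median centring).

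Different probe sets of the same gene often gave different answers. Of 2540 genes with at least 2 tested probe sets, 479 (18.9%) had probe sets whose side differences were at least 2-fold apart. The median log2 difference was 0.049 for the brightest and -0.19 for the second brightest probe set, and the 2 correlated at 0.213 across genes, which are not independent replicates. The same correlation for the Math2 minus control difference was 0.203. In 97 genes (3.82%) 1 probe set was higher and another lower without overlap between the sides, out of 477 genes with a higher and 809 with a lower one. For Math2 against control arrays the same count was 8 genes (0.315%), out of 185 and 222. Fewer genes separated the vectors at all, so 97 against 8 does not make opposite probe sets particular to the sides. Of the 2540 genes, 264 had a probe set at least 2-fold lower on the high-ratio arrays without overlap. Among these 264, 134 had another with a positive difference and 32 had all of them lower without overlap.

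Dhx36 had 4 tested probe sets. The one among the 12 lowest (1379101_at) measured 1201, 1535 and 2105 on the high-ratio arrays and 4503, 4084 and 4179 on the low-ratio arrays. Another (1393432_a_at) measured 3591, 3347 and 2871 against 2297, 2618 and 2167, a log2 difference of 0.47 where the first gave -1.43. Both separated the sets, in opposite directions, and a single fold for the Dhx36 transcript cannot be read from them. For Phip, a bromodomain protein, 1377130_at measured 6325, 5296 and 4573 against 3556, 3679 and 2813 (0.68), and 1391524_at measured 53.0, 51.4 and 52.8 against 250, 191 and 364 (-2.16).

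The genes with the widest gap between opposite probe sets included abundant transcripts. Canx, the endoplasmic reticulum chaperone calnexin, gave 7955, 6384 and 7909 against 5787, 6175 and 5588 with 1388442_at (0.34) and 22.8, 61.0 and 182 against 712, 345 and 533 with 1371687_at (-2.82). Sox2, a progenitor transcription factor, gave 6019, 6294 and 6066 against 5986, 5850 and 5109 with its brighter probe set (0.12) and 104, 371 and 258 against 1183, 758 and 1396 with the dimmer one (-2.28). Fyn, a Src family kinase, differed by 0.49 with 1373683_at and by -2.01 with 1369103_at. In each of these 3 genes the brighter probe set was slightly higher and the dimmer one far lower on the high-ratio arrays. Adam22 and Thoc3 had another order, with the dimmest probe set higher (1.76 and 1.41) and a brighter one lower (-3.73 and -1.43). Of the 23 genes behind the 24 leading probe sets, 10 had other tested probe sets and 7 of these had one of opposite sign. Some of these were differences near 0 of dim probe sets: the second probe set of Eef2, at signals of 34.9 to 126, differed by 0.047 ± 0.498 (SE). The position of each probe set along its transcript was not used here.

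**Figure D5:**
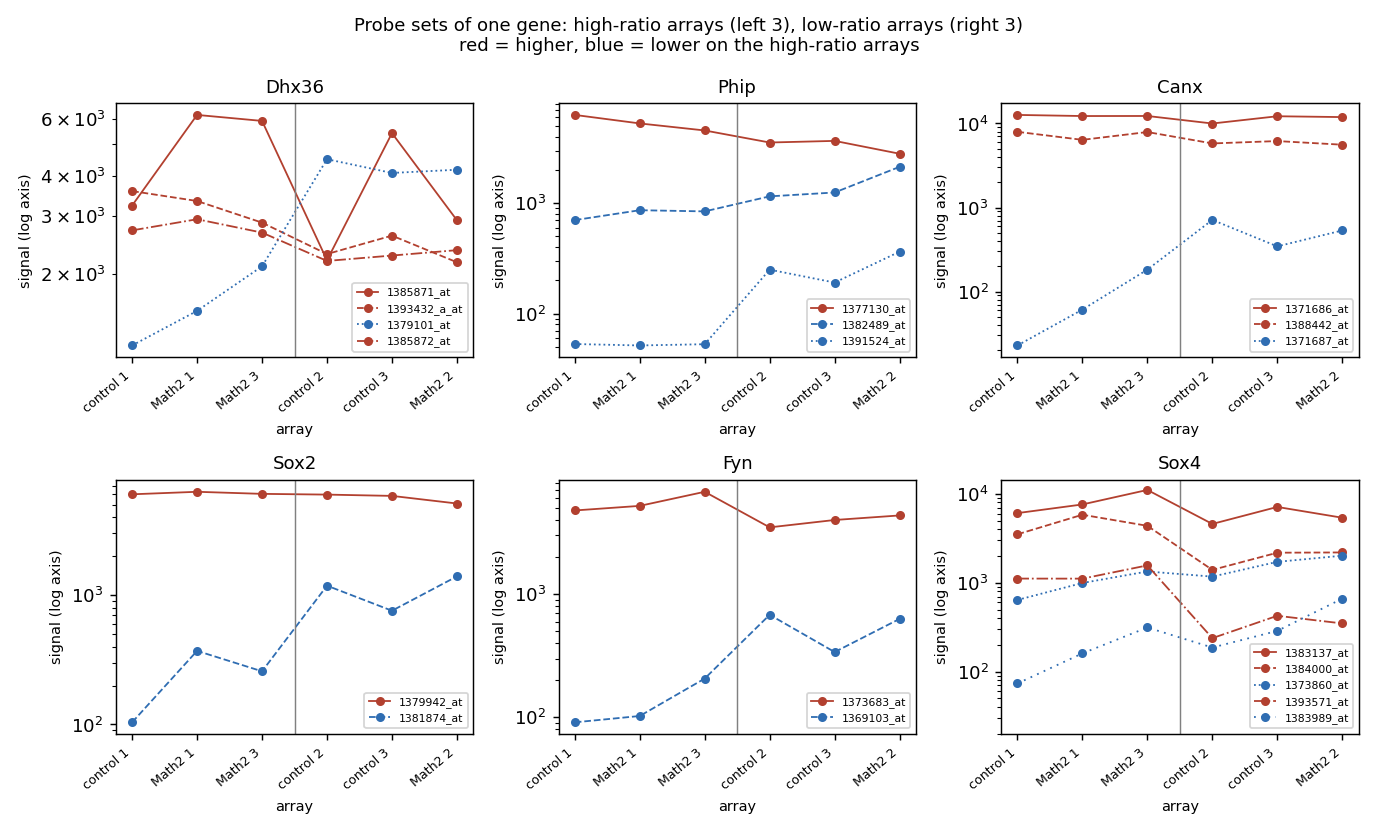
Signal (log axis) of every tested probe set of Dhx36, Phip, Canx, Sox2, Fyn and Sox4 on the 3 high-ratio and the 3 low-ratio arrays; red lines are probe sets with a positive and blue lines with a negative log2 difference, and lines only join the values of a probe set. Each gene has both colours, and the dimmer probe sets of Canx, Sox2 and Fyn have log2 differences of -2.82, -2.28 and -2.01.

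Classes of probe set defined without reference to gene function differed as well. By quintile of mean signal, from dimmest to brightest, the median log2 difference was -0.13, -0.15, -0.13, -0.033 and 0.11. The share lower without overlap was 12.1% in the dimmest quintile, 18.4% in the middle one and 9.40% in the brightest, while the share higher without overlap went from 3.97% to 17.7%. By length of the gene in RefSeq, from genes under 9.25 kb to genes over 82.3 kb, the quintile medians were -0.18, -0.19, -0.096, -0.022 and -0.016, and 20.8% of probe sets were lower without overlap in the shortest quintile against 12% in the longest. Gene length here is the genomic span with introns, not the length of the transcript. Probe sets built on a RefSeq mRNA had a median of -0.22 (n = 1589), and the 4557 without a gene symbol had 0.081 against -0.099 for the 13753 with 1 symbol.

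The split crossed the comparison the study was designed for. With side in the model, limma called 0 probe sets between Math2 and control arrays (0.0%), with 1007 (5.41%) at an unadjusted p under 0.05 and a smallest adjusted p of 0.247, and without side 594 had an unadjusted p under 0.05 and the smallest adjusted p was 0.492. With both side and replicate block 2 were called, Rtp3 (limma, adjusted p = 0.0228) and 1370751_at (adjusted p = 0.0442), and 1707 had an unadjusted p under 0.05. Side then takes up the difference within number 3, so that fit draws the vector difference from numbers 1 and 2 alone. It leaves 1 residual degree of freedom. Neurod6 itself measured 386 on control 1, 207 on control 2 and 973 on control 3 against 312, 167 and 1546 on Math2 1, 2 and 3, so its probe set did not separate the vectors. Whether it reads the part carried by the vector is not given in the labels, so it checks neither vector label. Plppr4, a plasticity-related membrane protein of neurons, measured 251 on control 1, 152 on control 2 and 269 on control 3 against 770, 844 and 1177 on Math2 1, 2 and 3 (1379374_at). Its Math2 minus control log2 difference was 1.95 ± 0.311 (SE, n = 3 each) with side in the model and 2.03 without it, with adjusted limma p of 0.413 and 0.562. With side and block together the difference was 2.00, from numbers 1 and 2 alone, with an adjusted limma p of 0.0668. Between the sides the same probe set overlapped (log2 difference 0.89, limma, adjusted p = 0.509).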

How the data were processed

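The deposited table holds 1 linear intensity per probe set and array, made by the authors with MAS5, per the submitters' processing notes. Its version and settings: not given in the sources used here. The method subtracts background and mismatch signal and scales each array to a common trimmed mean, and the 2% trimmed mean was 500 on every array, so no further scaling was applied. Depth has no meaning for arrays, and their number, 3 per side, limits the precision. No detection calls were used here, so folds of signals near the array medians are uncertain.

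Of 31099 probe sets, 57 controls were kept out of the tests. The platform annotation named 1 gene for 20826 probe sets, several for 436 and no gene for 9780, and 20758 had a RefSeq gene of the same gene number (GRCr8). Signals were transformed to log2(signal + 7.42), the pseudocount being the 10th percentile, and probe sets whose mean reached the 40th percentile (6.07) entered the tests, 18625 with 10417 symbols. Log2 differences understate dim probe sets. The side test was limma 3.58.1 (lmFit, eBayes with trend) under R 4.3.3, two-sided, Benjamini-Hochberg adjusted over all tested probe sets, threshold 0.05. Because measured Gapdh values set the sides, the p-values describe 2 sets of arrays, not a treatment. Array measures were compared by exact permutation. The fit was checked on simulated data in which 200 of 18625 probe sets were changed. The side test called 30% of the 2-fold and 91% of the 4-fold changes, and 11 unchanged probe sets. A count of 0 called therefore does not show that 2-fold differences were absent.

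Named genes were the 12 higher and 12 lower probe sets of smallest p among those with 1 symbol, up to 4 members per list, control probe sets, Plppr4 and markers of neurons, glia and fibroblasts; others named were chosen after their values were seen (Neurod6, Mx2, Psmc6, Actg1, Lamp2, Aqp4 and the genes with opposite probe sets). The members and lists were chosen with earlier results of these data known. Deviations from the vector means correlated at 0.326, 0.476 and 0.372 for arrays sharing number 1, 2 and 3, above 0.1, so the titles' numbers were taken to pair the arrays. Alternatives were other pseudocounts (1 and 32), filters, scalings, covariates, blocks and each array left out. Protein length was replaced by gene length after the files were seen.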

Additional observations from a re-analysis of the deposited data

How the results depend on the processing

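The count of probe sets with an adjusted limma p under 0.05 between the sides, 0 as reported, was 1 after quantile normalization (Eef2), 1 with the vector as covariate, and 0 to 20 when single arrays were left out (20 without Math2 3, 1 without control 3). The unadjusted count of 3140 was 748 with the replicate block, 1113 with the block and the vector, 1847 with the ratio as a continuous measure, and 1950 to 3362 with single arrays left out (lowest without control 2). For the interaction the unadjusted count of 504 was 1059 without a filter. For Math2 against control with side, the count of 0 was 2 with the replicate block, and the unadjusted 1007 was 594 without side and 1707 with the block. Of 29 lists with tested members, 15 had a negative median, and 7 after median centring. The block leaves number 3 as the only source of the side difference. With side also in the model, it leaves numbers 1 and 2 as the only source of the vector difference. For the other changes the cause was not tested. The 24 leading probe sets kept their sign in each alternative in which they were tested. Their separation of the sides fixed that sign within number 3 and with single arrays left out. List medians, which have no test, did not all keep their sign. Of 557 combinations of list and setting, 60 had a median of the other sign and 63 moved by more than the spread within sides. Leaving out the filter or limma's intensity trend left the list medians as they were. Of 31 lists, 10 kept their sign in each setting. Signals near the array medians of 102 to 120 limit what can be read from dim probe sets, since background was not known.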
